A study of Mus musculus with 20 samples.

Results

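The 9 stromal and matrix genes described here encode proteins of contractile cells and of the extracellular matrix, the protein meshwork between cells. They are Acta2 and Tagln, the fibrillar collagen chains Col1a1, Col1a2, Col3a1 and Col5a2, and the matricellular proteins Tnc, Postn and Sparc. They were listed by name, as a readout of non-blood cells left in a blood progenitor culture, and all 9 were found among 53379 gene identifiers and passed the filter on low counts. RNA-seq was made from mouse fetal liver cells without mature lineage markers, taken as blood progenitors, infected with MSCV, a retrovirus, and then cultured for 3 days. There were 5 groups of 4 libraries. All but the wild-type group lacked the -77 enhancer, a distal element that drives the blood transcription factor gene Gata2 in progenitors. Enhancer-null cells received a vector coding GATA2 with the protein change R307W (R307W cells), with T354M (T354M cells), or wild-type GATA2 (GATA2 cells). Enhancer-null cells with an empty vector (null-empty cells) and wild-type cells with an empty vector (wild-type cells) completed the set. The null-empty, GATA2 and wild-type records name C57BL/6J embryos at E14.5 and medium with interleukin 3 and stem cell factor. The R307W and T354M records give the cell type, vector and culture time but no age, strain or medium, so a difference in handling cannot be told apart from the variants. The labels do not say whether replicates are separate cultures or animals, so p-values measure the spread between these libraries.

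Collagens of types I, III and V assemble into the cable-like fibrils of connective tissue, and fibroblasts, hepatic stellate cells and smooth muscle cells are their main sources. Smooth muscle actin and transgelin are the usual marks of contractile mesenchymal cells such as myofibroblasts. Tenascin C, periostin and SPARC are secreted proteins that modify how cells attach to the matrix. In the fetal liver, blood progenitors develop among hepatoblasts, stellate cells, endothelium and perivascular cells, which are the surroundings of the blood stem cell niche. Several of these proteins are not limited to mesenchyme. SPARC is also stored in megakaryocytes and platelets.

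Each library held 22330475 to 33245876 expected counts, the reads that RSEM assigned to genes. Levels are given as CPM, a gene's share of the library's counts with libraries scaled by TMM. The 9 genes together made up 0.00153 to 0.0134% of the counts of a library, and single values rest on as few as 6 counts, for Col1a1 in wild-type replicate 2. The vectors raised Gata2 as labelled, to 39.5 to 89.5 CPM in R307W, 33.6 to 73.8 in T354M and 42.9 to 132 in GATA2 cells, against 4.72 to 7.67 in null-empty and 31.5 to 53.0 in wild-type cells. Reads of the vector and of the gene itself were not separated. A pair of libraries stood apart for these genes. Null-empty replicate 4 was the highest of its group for 9 of 9 genes, and wild-type replicate 1 was the highest of its group for 9 of 9. Calls of the 9 genes that were lost or gained without either library are given without it as well. Other differences were taken with all libraries unless stated.

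The genes were low in all groups (plot of CPM by library), and their sum, of which Sparc and Tagln made up most, was lowest with a GATA2 vector. Postn was an exception, with its highest mean in T354M cells. The summed level, per length, was 6.55 to 11.7 TPM in R307W, 10.9 to 16.2 in T354M and 5.71 to 14.7 in GATA2 cells, against 22.0 to 39.5 TPM in null-empty and 16.9 to 72.0 TPM in wild-type cells. The 3 vector groups did not reach the lowest null-empty or wild-type library. For scale, 10 genes of blood identity such as Coro1a, an actin regulator of leukocytes, and Ptprc, which encodes CD45, summed to 1156 to 1273 TPM in R307W, 1152 to 1418 in T354M and 1010 to 1369 in GATA2 cells, against 1461 to 1563 in null-empty and 559 to 773 in wild-type cells. That list itself moved, as 8 of 10 rose in null-empty against wild-type cells, where 20.1% of all genes rose and 23.2% fell. In such bulk RNA, fewer cells of a type and less RNA per cell cannot be told apart.

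**Figure D1:**
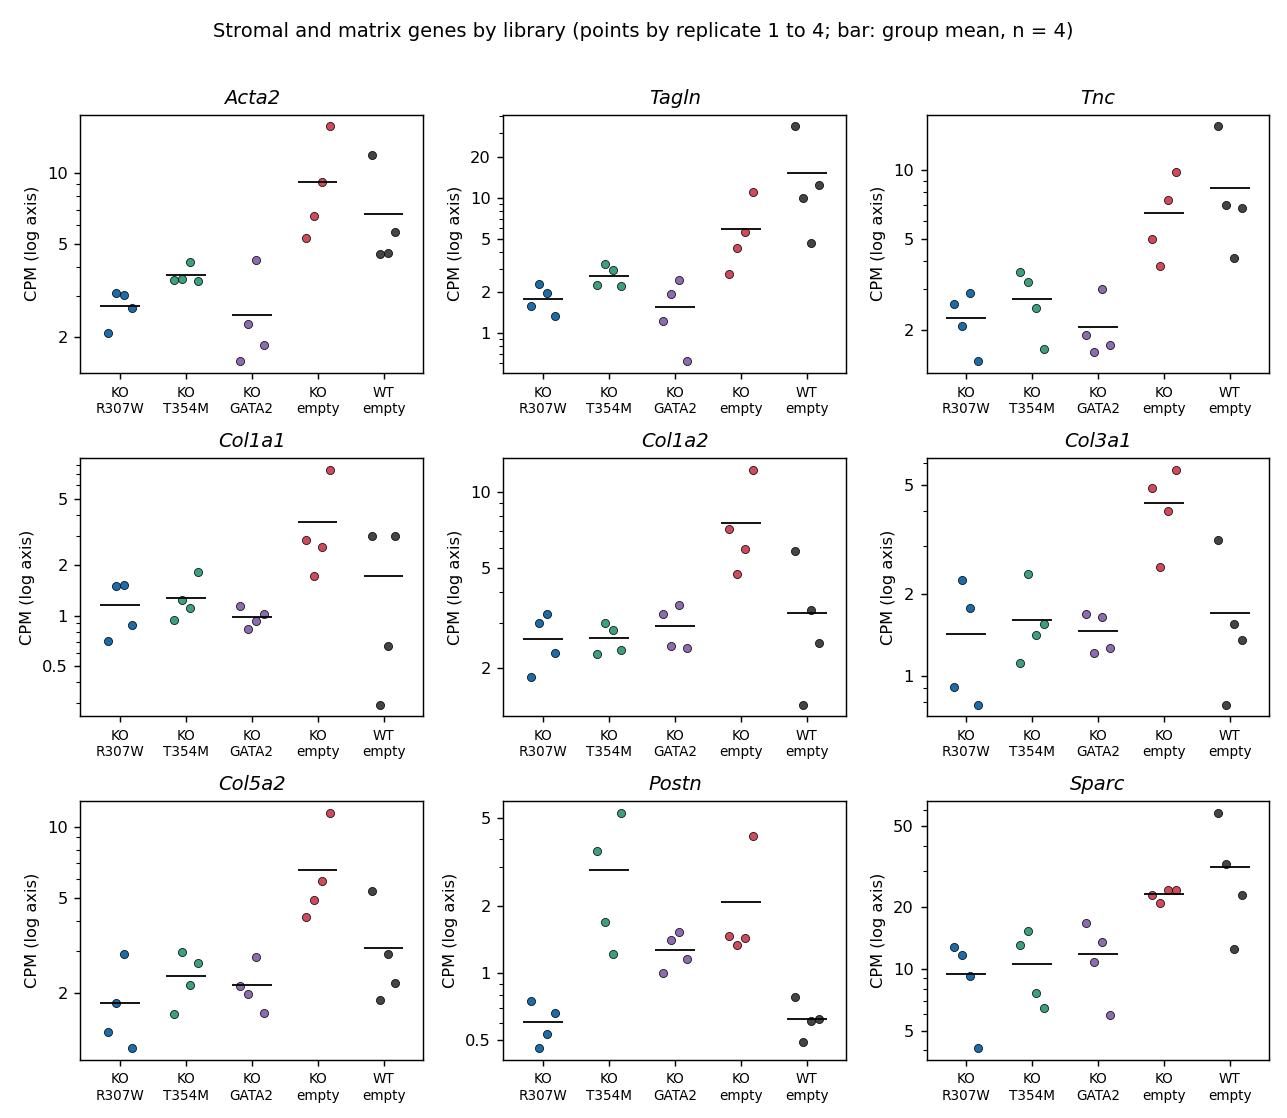
CPM of the 9 genes on log axes, 1 point per library in the order of replicates 1 to 4, with R307W, T354M and GATA2 cells (all KO) left of null-empty (KO empty) and wild-type (WT empty) cells. Bars are means of 4 libraries. Null-empty replicate 4, the rightmost point of its group, is the highest of its group in every panel, and wild-type replicate 1, the leftmost point, is the highest of its own.

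Loss of the enhancer was read from null-empty against wild-type cells. Of the 9 genes 4 rose (Col1a2, Col3a1, Col5a2 and Postn) and 1, Tagln, fell, at an adjusted p under 0.05 in edgeR. Over all 15835 genes tested, 20.1% rose and 23.2% fell. The median log2 difference of the 9 genes was 1.06, beside -0.05 over all genes. Of the 4 collagen chains 3 rose, and the one gene that fell was Tagln. The Tagln call was lost without wild-type replicate 1 (log2 -0.61, adjusted p = 0.275) or any 1 of null-empty replicates 1 to 3, and the Col5a2 call without null-empty replicate 4 (0.70, adjusted p = 0.121). Without replicate 4 of every group 2 were called, Tagln and Postn.

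The vectors were read against null-empty cells. With R307W 9 of 9 genes fell, where 10.0% of all genes rose and 7.48% fell. With T354M 5 of 9 fell (Acta2, Tnc, Col1a2, Col3a1 and Col5a2) and none rose, where 9.26% of all genes rose and 8.11% fell. With wild-type GATA2 7 of 9 fell, all but Postn and Sparc, where 11.0% rose and 8.23% fell. The median log2 differences were -1.67 with R307W, -1.33 with T354M and -1.61 with GATA2, beside 0.02, 0.02 and 0.00 over all genes. These 3 comparisons share the 4 null-empty libraries. Without null-empty replicate 4, 5 genes were called with R307W, 5 with GATA2 and 1, Col1a2, with T354M. The 5 with R307W were Acta2, Tnc, Col1a2, Col3a1 and Col5a2. Without replicate 4 of every group, 3 were called with R307W, 0 with T354M and 1, Acta2, with GATA2.

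Set against wild-type cells, Tagln, Tnc and Sparc fell in all 3 vector groups and Acta2 in 2 of them, while no collagen gene was called. Acta2 was at -0.86 in T354M cells (adjusted p = 0.0691). Without R307W replicate 3, Col5a2 was called lower in R307W cells (-1.05, adjusted p = 0.05 after rounding). Acta2, Tagln, Tnc and Sparc fell in R307W cells (4 of 9, where 16.5% of all genes rose and 17.0% fell). The comparisons of R307W and T354M cells with wild-type cells were added after the data were seen. Tagln, Tnc and Sparc fell and Postn rose in T354M cells (18.6% of all genes rose and 18.4% fell). Acta2, Tagln, Tnc and Sparc fell in GATA2 cells (14.7% rose and 16.0% fell). Without wild-type replicate 1 the call was lost for Sparc in GATA2 cells (log2 difference -0.94, adjusted p = 0.0762) and for Acta2 in R307W cells (-0.85, adjusted p = 0.0626).

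Between the vectors, Postn was the one gene called. In R307W against GATA2 cells 0 of 9 genes were called and 1, Postn, had an unadjusted p under 0.05 (0.587% of all genes rose and 1.14% fell, 274 genes in all, or 441 with the replicate number as a block). In T354M against GATA2 cells 0 of 9 were called and again Postn alone had an unadjusted p under 0.05 (3.86% rose and 6.14% fell). The DESeq2 Wald test and limma on log2 TPM also called 0 genes in both. In R307W against T354M cells 1 gene, Postn, was called, as lower (2.30% of all genes rose and 1.19% fell, 553 in all, or 888 with the block). A p above the threshold does not show that the vectors act alike.

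**Figure D2:**
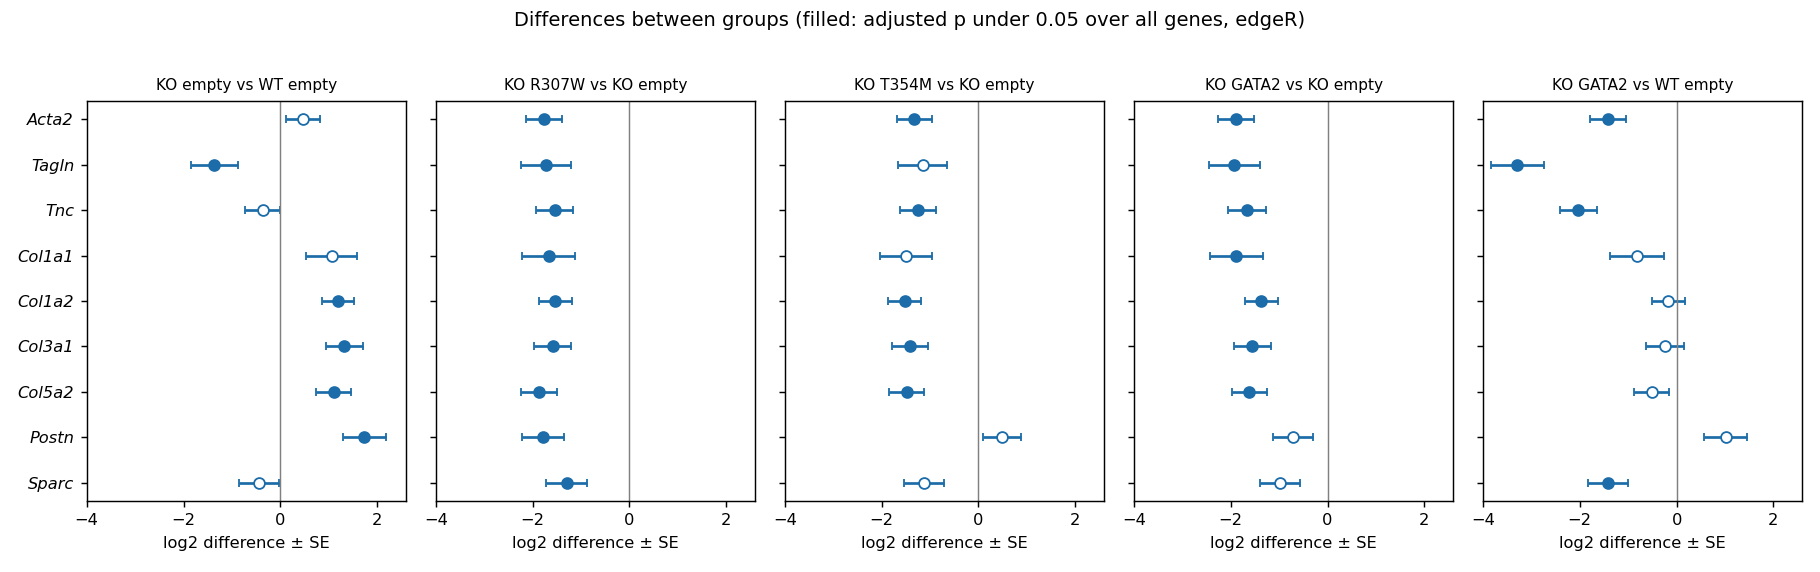
Log2 differences (points) with their SE (bars) for the 9 genes in 5 comparisons, the first-named group over the second, with KO for enhancer-null and WT for wild-type. Filled points passed an adjusted p of 0.05 over all genes. With R307W all 9 points lie below 0 and are filled, and in GATA2 against wild-type cells the collagen points are open while Acta2, Tagln, Tnc and Sparc are filled and below 0.

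Acta2 (ENSMUSG00000035783.8, GRCm38 chr19:34241090-34255590, minus strand) encodes smooth muscle alpha actin, the actin of contractile stress fibres. Coordinates are whole gene spans on GRCm38, from the GENCODE M21 annotation. Acta2 had 2.08, 3.08, 3.01 and 2.66 CPM in the R307W libraries and 3.49, 3.55, 4.18 and 3.48 in the T354M libraries. The GATA2 libraries had 1.58, 2.28, 4.27 and 1.85 CPM, against 5.30, 6.58, 9.13 and 15.8 in the null-empty and 12.0, 4.52, 4.55 and 5.62 in the wild-type libraries. All 12 vector libraries lay below all 4 null-empty libraries and below all 4 wild-type libraries. The log2 difference to null-empty cells was -1.77 with R307W (SE 0.37, adjusted p = 0.00306), -1.33 with T354M (SE 0.36, adjusted p = 0.0166) and -1.89 with GATA2 (SE 0.37, adjusted p = 0.00158). The T354M call was lost without null-empty replicate 4 (-0.93, adjusted p = 0.0894) or T354M replicate 4 (-1.31, adjusted p = 0.0507). Null-empty and wild-type cells did not separate (log2 0.47, SE 0.35, adjusted p = 0.305), but without wild-type replicate 1 null-empty cells were called higher (0.91, adjusted p = 0.0363). In the order null-empty, wild-type, T354M, R307W and GATA2, from high to low means, no neighbours differed at an adjusted p of 0.05. Actin genes are nearly identical in their coding sequence, so some reads of Acta2 may be shared with other actins.

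Tagln (ENSMUSG00000032085.5, chr9:45929619-45936058, minus strand) encodes transgelin, an actin-binding protein of smooth muscle. It had 1.58, 2.31, 1.98 and 1.33 CPM in the R307W, 2.27, 3.24, 2.92 and 2.22 in the T354M and 1.22, 1.94, 2.47 and 0.617 in the GATA2 libraries. The null-empty libraries had 2.75, 4.27, 5.55 and 11.1 CPM, and the wild-type libraries 33.8, 9.96, 4.65 and 12.4. All vector libraries lay below all wild-type libraries, while null-empty and wild-type values overlapped. Against wild-type cells Tagln was 8.46-fold lower in R307W (adjusted p = 0.000189), 5.72-fold lower in T354M (adjusted p = 0.000754) and 9.76-fold lower in GATA2 cells (adjusted p = 0.000125). These differences were smaller without wild-type replicate 1, at -2.32, -1.76 and -2.53 on the log2 scale against -3.08, -2.51 and -3.29 with it, and all 3 were still called. The fall in null-empty against wild-type cells (log2 -1.36, SE 0.49, adjusted p = 0.0316) was lost without wild-type replicate 1 (-0.61, adjusted p = 0.275) and without null-empty replicate 1 (-1.12, 0.0965), 2 (-1.23, 0.0845) or 3 (-1.33, 0.0684). Against null-empty cells Tagln fell with R307W (-1.72, SE 0.52, adjusted p = 0.029) and GATA2 (-1.93, SE 0.53, adjusted p = 0.0157), and was at -1.15 with T354M (SE 0.51, adjusted p = 0.127). Without null-empty replicate 4 neither call held, at -1.22 (adjusted p = 0.13) and -1.42 (adjusted p = 0.0747). The R307W call was also lost without R307W replicate 1 (adjusted p = 0.0712) or 4 (0.101), and the GATA2 call without GATA2 replicate 4 (0.0646). Of neighbours in the order wild-type, null-empty, T354M, R307W and GATA2, only null-empty and wild-type cells differed.

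The contractile and collagen promoters are shown because these genes moved together with the vectors. Promoter windows of 250 bases before to 50 after the start were taken from RefSeq (GRCm38.p6), whose table held 8 windows of 6 of the 9 genes. Capitals mark matches on either strand to a CArG box with 1 mismatch (the site of serum response factor, which drives smooth muscle genes), GATAA (read by GATA factors) or GGAATG (read by TEAD factors). The windows are Acta2 at chr19:34255324-34255623 (minus strand), Col1a2 at chr6:4505368-4505667 (plus strand) and Col3a1 at chr1:45311288-45311587 (plus strand).
Acta2: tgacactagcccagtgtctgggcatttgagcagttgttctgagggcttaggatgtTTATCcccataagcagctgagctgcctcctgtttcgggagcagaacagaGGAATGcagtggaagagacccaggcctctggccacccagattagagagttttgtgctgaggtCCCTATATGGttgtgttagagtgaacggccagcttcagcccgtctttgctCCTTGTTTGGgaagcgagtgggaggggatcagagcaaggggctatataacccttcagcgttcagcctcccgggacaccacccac
Col1a2: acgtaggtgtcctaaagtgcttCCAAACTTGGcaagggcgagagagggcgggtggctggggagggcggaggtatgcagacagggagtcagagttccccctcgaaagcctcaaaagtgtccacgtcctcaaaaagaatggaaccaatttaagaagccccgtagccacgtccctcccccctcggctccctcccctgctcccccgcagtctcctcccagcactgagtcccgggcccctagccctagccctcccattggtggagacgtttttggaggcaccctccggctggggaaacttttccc
Col3a1: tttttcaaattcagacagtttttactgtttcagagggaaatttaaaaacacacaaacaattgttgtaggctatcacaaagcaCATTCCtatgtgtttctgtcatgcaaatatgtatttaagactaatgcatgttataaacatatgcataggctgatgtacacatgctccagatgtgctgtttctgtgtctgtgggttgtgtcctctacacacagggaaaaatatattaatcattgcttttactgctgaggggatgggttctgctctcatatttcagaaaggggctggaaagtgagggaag
The Acta2 window held 2 CArG boxes with 1 mismatch, at -84 and -34 from the start, with 1 GATAA and 1 GGAATG match. Col1a2 held 1 such CArG box, at -228, and Col3a1 held 1 GGAATG match, at -168. The windows of Postn, Tnc and Sparc held none of these. No window of the 6 genes held an exact CArG box or TGANTCA, the letters of AP-1. Over all 32851 windows of the table, 1.63% held an exact CArG box, 9.98% one with 1 mismatch or none, 25.4% GATAA, 14.7% GGAATG and 7.81% TGANTCA. The matches are a description of these letters and not evidence of binding.

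Col1a1 and Col1a2 encode the chains of type I collagen, the main collagen of connective tissue. Col1a2 (ENSMUSG00000029661.16, chr6:4504814-4541544, plus strand) had 1.83, 3.01, 3.26 and 2.29 CPM in the R307W libraries and 2.27, 3.01, 2.81 and 2.35 in the T354M libraries. It had 3.26, 2.44, 3.56 and 2.40 in the GATA2 libraries, against 7.15, 4.69, 5.90 and 12.3 in the null-empty and 5.83, 1.42, 3.38 and 2.50 in the wild-type libraries. All 12 vector libraries lay below all null-empty libraries and within the wild-type range. Null-empty cells were 2.28-fold above wild-type cells (log2 1.19, SE 0.34, adjusted p = 0.00789). The vectors lowered Col1a2 by a similar size, with log2 differences of -1.53 with R307W (adjusted p = 0.00524), -1.52 with T354M (adjusted p = 0.00503) and -1.37 with GATA2 (adjusted p = 0.00897), each with an SE of 0.34. Its calls in the comparisons with null-empty cells held without any 1 library. All of them were lost without replicate 4 of every group. In the order null-empty, wild-type, GATA2, T354M and R307W, only null-empty and wild-type cells differed as neighbours.

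Col1a1 (ENSMUSG00000001506.10, chr11:94936224-94953042, plus strand) was the lowest of the 9 genes per length, at a mean of 0.380 TPM over the 20 libraries. It had 0.706, 1.50, 1.53 and 0.876 CPM in R307W, 0.943, 1.24, 1.12 and 1.84 in T354M and 1.15, 0.837, 0.937 and 1.03 in GATA2 libraries. Values in null-empty libraries were 2.82, 1.72, 2.58 and 7.46 CPM, and the wild-type libraries 3.00, 0.294, 0.657 and 2.98. Wild-type libraries thus spanned both the vector and the lower null-empty values. Col1a1 fell with R307W (log2 -1.67, SE 0.54, adjusted p = 0.0413) and GATA2 (-1.88, SE 0.55, adjusted p = 0.0223), and was at -1.51 with T354M (SE 0.54, adjusted p = 0.0606), which passed without null-empty replicate 2 (-1.74, adjusted p = 0.0428). Without null-empty replicate 4 the values were -1.04 (adjusted p = 0.206) with R307W and -1.26 (adjusted p = 0.122) with GATA2. The R307W call was also lost without null-empty replicate 1 (0.0551) or 3 (0.0508) and without R307W replicate 1 (0.107), 3 (0.052) or 4 (0.128), and the GATA2 call without GATA2 replicate 2 (0.0599) or 4 (0.0628). No neighbours in the order null-empty, wild-type, T354M, R307W and GATA2 differed.

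Col3a1 (ENSMUSG00000026043.18, chr1:45311538-45349706, plus strand) encodes the chain of type III collagen, which shares fibrils with type I in elastic tissues. It had 0.914, 2.24, 1.77 and 0.785 CPM in R307W, 1.12, 2.35, 1.41 and 1.55 in T354M and 1.68, 1.22, 1.65 and 1.27 in GATA2 libraries. The null-empty libraries had 4.89, 2.51, 4.02 and 5.68 CPM, and the wild-type libraries 3.13, 0.785, 1.55 and 1.36. All vector libraries lay below all null-empty libraries. Null-empty cells were 2.50-fold above wild-type cells (log2 1.32, SE 0.38, adjusted p = 0.00883). The log2 difference to null-empty cells was -1.59 with R307W (SE 0.39, adjusted p = 0.00881), -1.42 with T354M (SE 0.38, adjusted p = 0.0159) and -1.56 with GATA2 (SE 0.38, adjusted p = 0.00856). The T354M call was lost without null-empty replicate 4 (-1.25, adjusted p = 0.0562) or T354M replicate 1 (-1.28, adjusted p = 0.0577). Only null-empty and wild-type cells differed among neighbours in the order null-empty, wild-type, T354M, GATA2 and R307W.

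Col5a2 (ENSMUSG00000026042.16, chr1:45374321-45503282, minus strand) lies next to Col3a1 on chromosome 1 and encodes a chain of type V collagen, which sets the width of type I fibrils. It had 1.37, 1.81, 2.93 and 1.18 CPM in R307W, 1.64, 2.97, 2.16 and 2.67 in T354M and 2.15, 1.98, 2.85 and 1.65 in GATA2 libraries. Values in null-empty libraries were 4.17, 4.90, 5.90 and 11.4 CPM, and the wild-type libraries 5.35, 1.87, 2.91 and 2.20. Again all vector libraries lay below all null-empty libraries and overlapped with wild-type. Null-empty cells were 2.14-fold above wild-type cells (log2 1.10, SE 0.36, adjusted p = 0.0194), a call lost without null-empty replicate 4 (0.70, adjusted p = 0.121) and without wild-type replicate 2 (0.96, adjusted p = 0.0517) or 4 (1.00, adjusted p = 0.0533). Col5a2 fell with R307W (-1.86, SE 0.37, adjusted p = 0.00225), T354M (-1.48, SE 0.37, adjusted p = 0.0092) and GATA2 (-1.61, SE 0.37, adjusted p = 0.00495), and the T354M call was lost without null-empty replicate 4 (-1.08, adjusted p = 0.0527). In the order null-empty, wild-type, T354M, GATA2 and R307W, only null-empty and wild-type cells differed as neighbours.

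**Figure D3:**
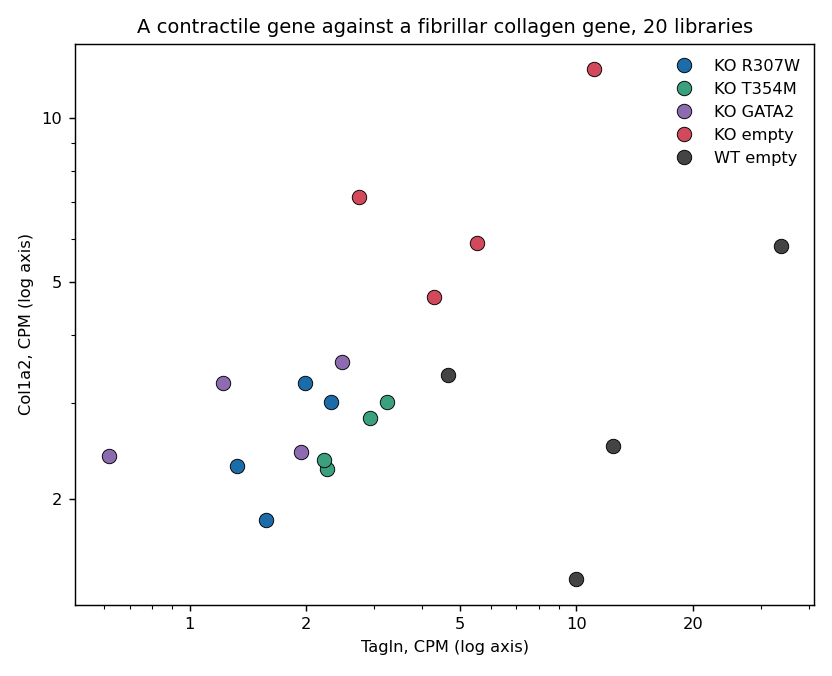
CPM of the collagen gene Col1a2 against the contractile gene Tagln on log axes, 1 point per library, coloured by group (KO for enhancer-null, WT for wild-type). The 4 null-empty points lie above all 12 vector points on the Col1a2 axis, and the 4 wild-type points lie right of all 12 vector points on the Tagln axis, from 4.65 to 33.8 CPM.

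Tnc (ENSMUSG00000028364.15, chr4:63959785-64047015, minus strand) encodes tenascin C, a matrix protein made in development and wounds. It had 2.58, 2.08, 2.89 and 1.45 CPM in R307W, 3.56, 3.24, 2.49 and 1.64 in T354M and 1.90, 1.60, 3.00 and 1.71 in GATA2 libraries. The null-empty libraries had 4.96, 3.81, 7.38 and 9.84 CPM, and the wild-type libraries 15.6, 7.02, 4.13 and 6.80. No vector library reached the lowest null-empty or wild-type library. Tnc fell against null-empty cells with R307W (log2 -1.54, SE 0.38, adjusted p = 0.0101), T354M (-1.25, SE 0.38, adjusted p = 0.0282) and GATA2 (-1.66, SE 0.38, adjusted p = 0.00539). The T354M call was lost without null-empty replicate 3 (adjusted p = 0.0657) or 4 (0.112) and without T354M replicate 3 (0.0589) or 4 (0.0998). Against wild-type cells Tnc was 3.74-fold lower in R307W (adjusted p = 0.000786), 3.07-fold lower in T354M (adjusted p = 0.00228) and 4.08-fold lower in GATA2 cells (adjusted p = 0.000508). Null-empty and wild-type cells did not separate (-0.37, SE 0.36, adjusted p = 0.446). In the order wild-type, null-empty, T354M, R307W and GATA2, T354M and null-empty cells were the only neighbours that differed.

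Sparc (ENSMUSG00000018593.13, chr11:55394500-55423183, minus strand) encodes a collagen-binding calcium protein and was the highest of the 9 per length, at a mean of 7.92 TPM. It had 12.9, 11.6, 9.29 and 4.11 CPM in R307W, 13.1, 15.3, 7.61 and 6.48 in T354M and 16.8, 10.8, 13.5 and 5.96 in GATA2 libraries. The null-empty libraries were close to each other at 22.9, 21.0, 24.5 and 24.5 CPM, and the wild-type libraries ranged widely at 58.0, 32.5, 12.5 and 23.1. All vector libraries lay below all null-empty libraries, and replicate 4 was the lowest in each vector group. Sparc fell with R307W (log2 -1.30, SE 0.42, adjusted p = 0.0375), while it was at -1.13 with T354M (SE 0.41, adjusted p = 0.0662, or -1.37 and 0.04 without T354M replicate 2) and -0.98 with GATA2 (SE 0.41, adjusted p = 0.105). The R307W call was lost without any 1 null-empty library (adjusted p of 0.0661, 0.0555, 0.0725 and 0.0763) and without R307W replicate 3 (0.0686) or 4 (0.133). With the replicate number as a block, Sparc fell with GATA2 as well (-1.10, adjusted p = 0.0178). That block was fitted over all 20 libraries, also in groups whose numbers did not pair with null-empty cells, and the pairing was read from these same data. Against wild-type cells Sparc was 3.34-fold lower in R307W (adjusted p = 0.00328), 2.97-fold lower in T354M (adjusted p = 0.00578) and 2.67-fold lower in GATA2 cells (adjusted p = 0.0132). No neighbours differed in the order wild-type, null-empty, GATA2, T354M and R307W.

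Postn (ENSMUSG00000027750.16, chr3:54361109-54391037, plus strand) encodes periostin, a matrix protein of activated fibroblasts. It had 0.748, 0.463, 0.537 and 0.664 CPM in the R307W libraries, close to the wild-type values. The T354M libraries had 3.53, 1.70, 1.23 and 5.25 CPM and the GATA2 libraries 1.00, 1.41, 1.54 and 1.17. Values in null-empty libraries were 1.47, 1.34, 1.44 and 4.12 CPM and the wild-type libraries 0.783, 0.491, 0.610 and 0.625. All 4 R307W libraries lay below all T354M, all GATA2 and all null-empty libraries. Null-empty cells were 3.33-fold above wild-type cells (log2 1.73, SE 0.44, adjusted p = 0.00338), and T354M cells were 4.64-fold above them (2.21, SE 0.44, adjusted p = 0.000526). Postn fell with R307W against null-empty cells (-1.79, SE 0.43, adjusted p = 0.00872), a call lost without null-empty replicate 4 (-1.22, adjusted p = 0.0515), and was at 0.48 with T354M (SE 0.40, adjusted p = 0.456) and -0.72 with GATA2 (SE 0.41, adjusted p = 0.249). It was 4.83-fold lower in R307W than in T354M cells (-2.27, SE 0.43, adjusted p = 0.00452). In a fit of those 8 libraries alone that value was -2.28 with an adjusted p of 0.0516. Against GATA2 cells it was at -1.08 in R307W (SE 0.44, adjusted p = 0.399) and 1.20 in T354M cells (SE 0.41, adjusted p = 0.0725), and the T354M value passed without T354M replicate 3 (1.43, adjusted p = 0.026). No neighbours differed in the order T354M, null-empty, GATA2, wild-type and R307W.

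The likeness of the 9 genes to each other was described by Pearson's r of log2 CPM over the 20 libraries, which share groups and depth. Col1a2 and Col3a1 had the highest value, at 0.942, and both were close to Col5a2 (0.910 and 0.894). Tagln and Tnc had 0.912, Tnc and Sparc 0.882 and Tagln and Sparc 0.814. Acta2 was close to genes of both sets, with 0.850 for Tagln, 0.870 for Tnc and 0.850 for Col5a2. Between the collagens and Tagln, Tnc or Sparc the values ran from 0.356 for Col1a1 and Sparc to 0.691 for Tnc and Col5a2. Postn had between -0.078 and 0.393 with the other 8. After group means were taken out, Col1a2 and Col3a1 had 0.873 and Tagln and Tnc 0.762, while Tagln and Col5a2, at 0.694, were above Tagln and Sparc, at 0.655.

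Outside the 9, the genes most like each member were taken as the 3 with the highest r among the other genes tested. Of these outside genes, Tagln was nearest to Ccn2, a matricellular target of TGF-beta and YAP (0.944), Amotl2, a YAP regulator (0.941), and Col12a1 (0.941). Acta2 was nearest to Col12a1, a fibril-associated collagen (0.909), Bgn, the proteoglycan biglycan (0.907), and Cd109 (0.902). Sparc was nearest to Ccn1 (0.972), Tcim (0.969) and Lmo7 (0.967), and Tnc to Lrp2 (0.957), Unc5b (0.954) and Tead2 (0.954). Col5a2 and Col1a2 were nearest to Fstl1, a secreted glycoprotein (0.956 and 0.911), and Col3a1 to Myo1c, an unconventional myosin (0.905). Col1a2 and Col3a1 were nearer to each other, at 0.942, than to any of these. The genes nearest to Col1a1 were Dlgap4 (0.934), Mfsd12 (0.912) and Ipo13 (0.882). For Postn the values were lower, with Dip2c first at 0.806.

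Other matrix proteins moved less uniformly. Of 35 listed, 29 were tested. Against null-empty cells 7.48% of all genes fell and 10.0% rose with R307W. The shares were 8.11% and 9.26% with T354M, and 8.23% and 11.0% with GATA2. Against null-empty cells 8 fell and 1 rose with R307W, 5 fell and 1 rose with T354M, and 8 fell and none rose with GATA2, with median log2 differences of -1.15, -1.03 and -0.90. Fbn1, the microfibril protein fibrillin 1, averaged 0.935 CPM in R307W, 0.731 in T354M and 0.781 in GATA2 cells, against 2.80 in null-empty cells, and fell in all 3 comparisons (adjusted p = 0.00386, 0.000841 and 0.00106). In null-empty against wild-type cells 3 rose and 4 fell of the 29, smaller shares than the 20.1% and 23.2% of all genes. Thbs1, which encodes thrombospondin 1 and is made by platelets too, had the highest mean of the list at 63.7 TPM, more than all 9 stromal genes together in any library but wild-type replicate 1.

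The partner chains of type V collagen did not move together in every comparison. Col5a1 had 2.82, 1.80, 3.28 and 4.37 CPM in the null-empty libraries, against 21.6, 14.8, 28.8 and 33.0 in the wild-type libraries. It thus fell by 3.00 on the log2 scale (adjusted p = 1.43e-07) with loss of the enhancer, where Col5a2 rose, and no library of one group reached the other. Col5a1 stayed low with the vectors, at means of 2.26 CPM in R307W, 1.04 in T354M and 1.45 in GATA2 cells, with log2 differences to wild-type cells of -3.43, -4.55 and -4.08 (adjusted p = 6.83e-08, 2.7e-09 and 1.97e-08). Its T354M libraries (0.902 to 1.19 CPM) and GATA2 libraries (1.18 to 1.76 CPM) lay below all null-empty libraries, as for Col5a2. The R307W libraries (1.36 to 3.23 CPM) overlapped with null-empty for Col5a1. Col5a3, the third chain of the family, averaged 1.07 CPM in R307W and 0.978 in T354M cells, against 0.299 in GATA2 and 0.174 in null-empty cells. It rose with R307W (2.58, adjusted p = 9.26e-05) and T354M (2.44, adjusted p = 0.000148) over null-empty cells, and over GATA2 cells by 1.83 (adjusted p = 0.00601) and 1.70 (adjusted p = 0.00243). These values rest on few reads, as Col5a3 had 3 to 7 counts in a null-empty and 4 to 10 in a GATA2 library. The wild-type libraries had 0.282 to 0.687 CPM.

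**Figure D4:**
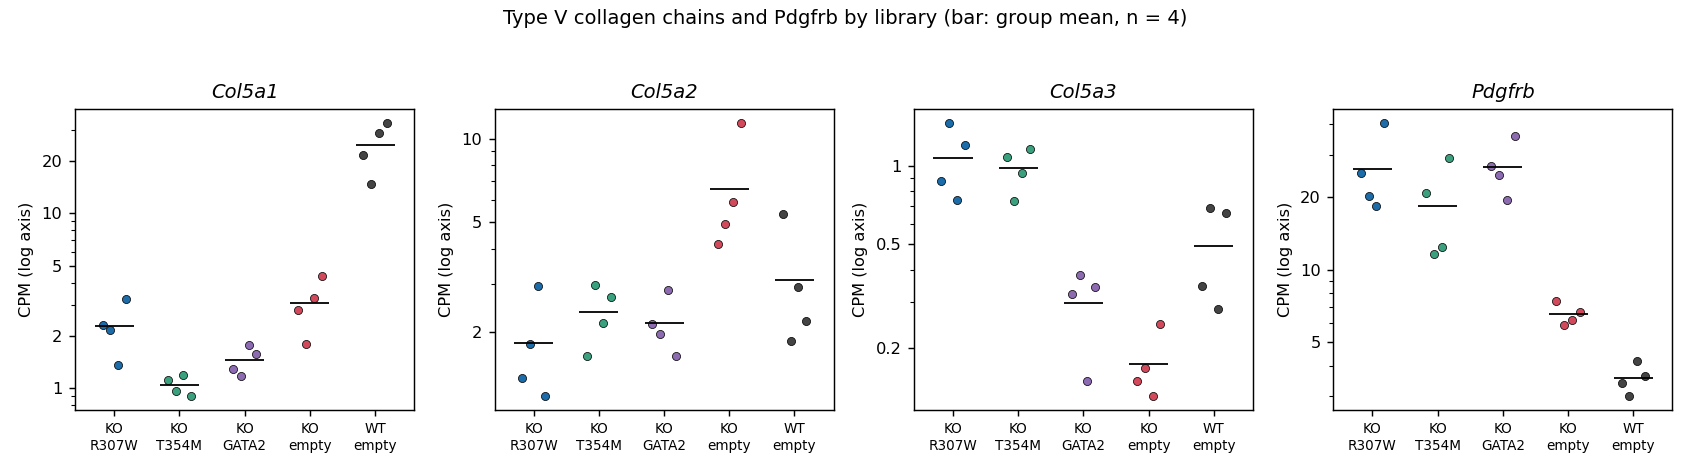
CPM on log axes of the type V collagen chain genes Col5a1, Col5a2 and Col5a3 and of the PDGF receptor gene Pdgfrb, 1 point per library, with R307W, T354M and GATA2 cells (all KO) left of null-empty (KO empty) and wild-type (WT empty) cells. Bars are means of 4 libraries. Col5a1 lies between 14.8 and 33.0 CPM in wild-type libraries and at 4.37 CPM or less in the others, Col5a2 has its highest mean in null-empty cells, and Pdgfrb is at 11.6 CPM or more in all 12 vector libraries.

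Of 23 genes that fold, modify or cross-link collagen, 18 were tested. Against null-empty cells 4 fell and 1 rose with R307W, 2 fell and 1 rose with T354M, and 3 fell and 3 rose with GATA2. Over all genes 7.48% fell and 10.0% rose with R307W, 8.11% and 9.26% with T354M, and 8.23% and 11.0% with GATA2. P4hb, the protein disulfide isomerase subunit of prolyl 4-hydroxylase, rose in each, with log2 differences of 0.44, 0.62 and 0.45 (adjusted p = 0.0051, 0.000287 and 0.00381) and a mean of 363 TPM over all libraries. Fkbp10, a collagen chaperone, fell with R307W (-1.68, adjusted p = 0.0144) and T354M (-1.38, adjusted p = 0.0339).

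Among 32 contractile and cytoskeletal genes 25 were tested. Against null-empty cells 6 fell and 3 rose with R307W, 5 fell and 2 rose with T354M, and 5 fell and 5 rose with GATA2. Over all genes 7.48% fell and 10.0% rose with R307W, 8.11% and 9.26% with T354M, and 8.23% and 11.0% with GATA2. Myl9, the regulatory light chain of smooth muscle myosin, averaged 0.306 CPM in R307W, 0.557 in T354M and 0.582 in GATA2 cells, against 1.52 in null-empty and 5.92 in wild-type cells. It fell against null-empty cells with R307W (-2.31, adjusted p = 0.000759), T354M (-1.44, adjusted p = 0.0138) and GATA2 (-1.39, adjusted p = 0.0154). It also fell in null-empty against wild-type cells, by 1.96 on the log2 scale (adjusted p = 0.000162). Csrp1, a cytoskeletal LIM protein, moved the other way and rose with R307W (0.96, adjusted p = 0.000169), T354M (0.58, adjusted p = 0.00997) and GATA2 (0.84, adjusted p = 0.000524). The median of the list stayed near 0, at -0.19, -0.20 and -0.06.

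Other markers of mesenchymal cells were mixed. Of 24 genes of fibroblast identity 13 passed the filter. The transcription factor genes Twist1, Twist2, Prrx1, Tcf21, Osr1 and Tbx18 averaged 0.0055 to 0.048 TPM, and Osr1 had no count in any R307W, T354M or GATA2 library. The summed level of the list was 32.2 to 45.7 TPM in R307W, 49.1 to 68.5 in T354M and 46.4 to 55.4 in GATA2 cells, against 58.1 to 70.6 in null-empty and 27.3 to 52.6 in wild-type cells. Igfbp4 and Lrp1, which macrophages and other cells also express, made up most of it, with means of 24.1 and 11.9 TPM. Against null-empty cells 5 fell and 1 rose with R307W, 3 fell and 1 rose with T354M, and 1 fell and 1 rose with GATA2. In each the gene that rose was Pdgfrb. Over all genes 7.48% fell and 10.0% rose with R307W, 8.11% and 9.26% with T354M, and 8.23% and 11.0% with GATA2.

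Pdgfrb, the PDGF receptor of fibroblasts and pericytes, had 25.2, 20.2, 18.3 and 40.6 CPM in R307W, 20.7, 11.6, 12.5 and 28.9 in T354M and 26.8, 24.7, 19.4 and 35.7 in GATA2 libraries. The null-empty libraries had 7.45, 5.91, 6.16 and 6.68 CPM and the wild-type libraries 3.39, 2.99, 4.18 and 3.64. Every vector library lay above every null-empty library. It rose by 1.99 with R307W (adjusted p = 9.82e-05), 1.49 with T354M (adjusted p = 0.0013) and 2.02 with GATA2 (adjusted p = 7.27e-05), where Acta2 and the collagens Col1a2, Col3a1 and Col5a2 fell. Rgs5, a pericyte gene, averaged 1.07 CPM in R307W, 2.59 in T354M and 2.39 in GATA2 cells, against 0.147 in null-empty cells, and rose in each as well (2.84, 4.10 and 3.98, adjusted p = 0.00091, 1.48e-05 and 2.65e-05).

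Of 15 stellate and mesothelial genes 7 were tested. Against null-empty cells 1 rose and 1 fell with R307W and with T354M, and 2 rose and 0 fell with GATA2. Rgs5, of this list, rose in each, while Reln fell with R307W (-1.27, adjusted p = 0.0369) and T354M (-1.28, adjusted p = 0.0346). Over all genes 7.48% fell and 10.0% rose with R307W, 8.11% and 9.26% with T354M, and 8.23% and 11.0% with GATA2. In null-empty against wild-type cells 1 rose and 4 fell, beside 20.1% and 23.2% of all genes. The stellate cell genes Lrat, Ngfr, Hand2 and Lhx2 were at a mean of 0.028 TPM or less. Lrat had no count in any GATA2 library, Ngfr none in any GATA2 or null-empty library, Hand2 none in any T354M library and Lhx2 none in any null-empty library. The summed list had 1.89 to 3.80 TPM in R307W, 2.33 to 6.52 in T354M and 3.62 to 6.54 in GATA2 cells, against 4.20 to 5.55 in null-empty and 8.71 to 16.5 in wild-type cells. Gfap, a glial and stellate filament gene, averaged 0.269 CPM in null-empty cells against 7.42 in wild-type cells (log2 -4.74, adjusted p = 2.9e-07).

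**Figure D5:**
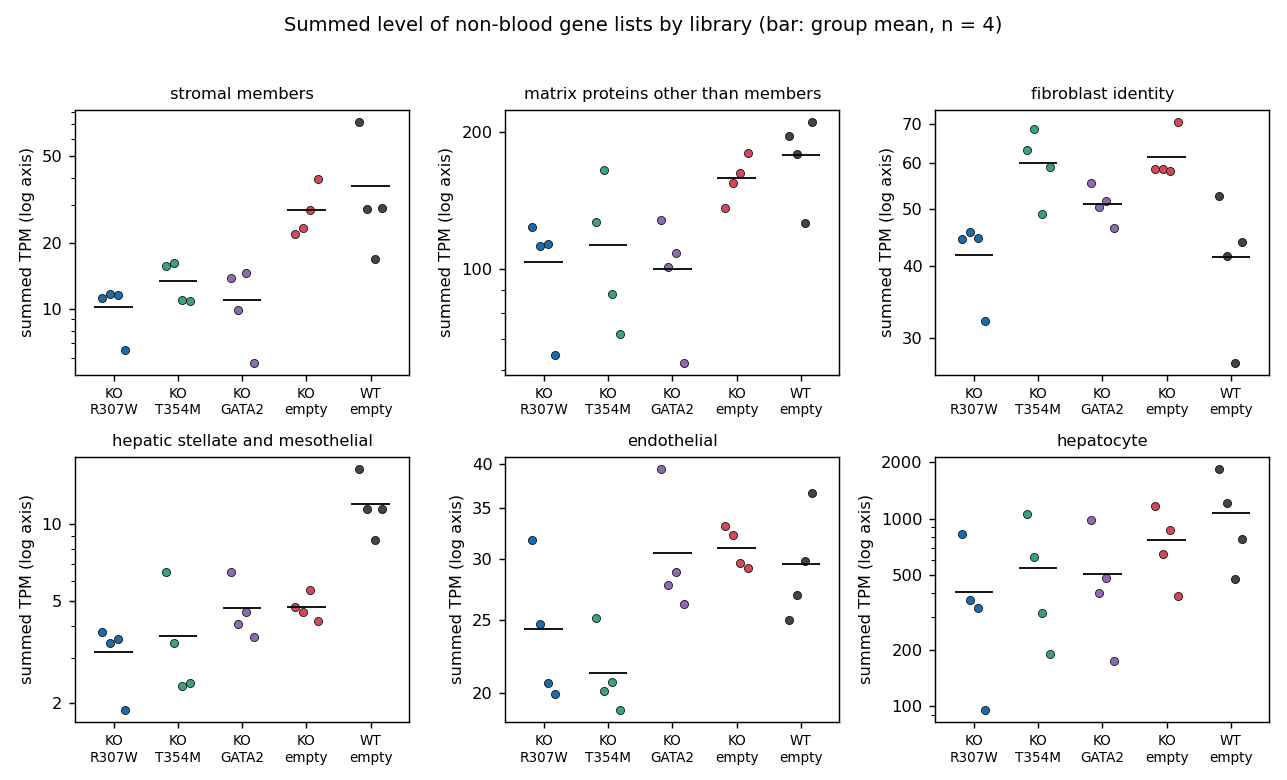
Summed TPM of the 9 stromal genes and of 5 other lists (matrix, fibroblast, stellate and mesothelial, endothelial and hepatocyte genes) on log axes, 1 point per library. R307W, T354M and GATA2 cells (all KO) are left of null-empty (KO empty) and wild-type (WT empty) cells. Some listed genes, such as Thbs1, Igfbp4 and Lrp1, are not limited to non-blood cells. Bars are means of 4 libraries. In the hepatocyte panel replicate 1, the leftmost point, is the highest of every group, and null-empty replicate 4 is the lowest of its group there while it is the highest for the 9 stromal genes.

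Hepatocyte genes were high in the same libraries as part of the set. The summed TPM of 19 hepatocyte genes, led by Afp (alpha-fetoprotein) and Trf (transferrin), was 831, 366, 332 and 95.7 in R307W, 1057, 620, 315 and 190 in T354M and 982, 399, 482 and 174 in GATA2 libraries. It was 1171, 646, 872 and 388 TPM in null-empty and 1842, 1207, 475 and 782 TPM in wild-type libraries. Of 17 tested, 0 were called in any comparison with null-empty cells by edgeR, the DESeq2 Wald test or limma (0 had an unadjusted p under 0.05 in edgeR), and edgeR called 8 lower in R307W, 3 in T354M and 2 in GATA2 against wild-type cells. Against wild-type cells the DESeq2 Wald test called 13, 3 and 2 lower and limma 4, 1 and 1. Over all genes edgeR called 17.0%, 18.4% and 16.0% lower in these comparisons. Over the 20 libraries the r with this sum was 0.878 for Sparc, 0.672 for Tnc and 0.554 for Tagln, against 0.353 for Acta2 and 0.090 to 0.301 for the 4 collagens. After group means were taken out it was 0.870 for Sparc, 0.522 for Tnc, 0.266 for Tagln and -0.073 for Acta2. For the collagens it was then between -0.090 and 0.184. For Sparc it was also 0.855 with the fibroblast identity sum and 0.790 with the macrophage sum. The part of the hepatocyte genes in the result for Sparc was not tested. Null-empty replicate 4, with the highest collagens, had the lowest hepatocyte sum of its group.

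Endothelial and blood lineage lists were counted in the same comparisons. Against null-empty cells 7.48% of all genes fell and 10.0% rose with R307W. The shares were 8.11% and 9.26% with T354M, and 8.23% and 11.0% with GATA2. Of 15 endothelial genes tested 7 fell and 1 rose with R307W, 7 fell with T354M, and 4 fell and 2 rose with GATA2 against null-empty cells, and 2 rose and 3 fell in null-empty against wild-type cells, where 20.1% of all genes rose and 23.2% fell. The summed endothelial list was 20.0 to 31.8 TPM in R307W, 19.0 to 25.1 in T354M and 26.2 to 39.4 in GATA2 cells, against 29.3 to 33.2 in null-empty and 24.9 to 36.6 in wild-type cells. Egfl7 made up most of that sum, with a mean of 20.15 TPM, and the next gene, Esam, had 1.19. Of the macrophage list 12 were tested. Of these 8 rose and 1 fell in null-empty against wild-type cells, and 8 fell and 1 rose with R307W, 8 fell and 1 rose with T354M, and 7 fell with GATA2. It summed to 99.7 to 222 TPM in R307W, 107 to 268 in T354M and 101 to 237 in GATA2 cells, against 322 to 395 in null-empty and 75.1 to 116 in wild-type cells. Of the megakaryocyte list 14 of 14 fell in null-empty against wild-type cells. Against null-empty cells 4 of these genes fell with R307W, 5 fell with T354M, and 3 rose and 1 fell with GATA2. The megakaryocyte list summed to 105 to 148 TPM in R307W, 96.2 to 157 in T354M and 170 to 241 in GATA2 cells, against 137 to 359 in null-empty and 401 to 648 in wild-type cells. The 12 mast cell and basophil genes include Gata2 itself, whose moves were set by the deleted enhancer and the vectors. All 12 fell in null-empty against wild-type cells. Of them 8 rose with R307W, 8 with T354M and 11 with GATA2 against null-empty cells. They summed to 356 to 775 TPM in R307W, 344 to 1016 in T354M and 1141 to 3384 in GATA2 cells, against 49.5 to 59.5 in null-empty and 502 to 712 in wild-type cells. Over the 20 libraries the r of this sum with the 9 genes ran from -0.744 for Col3a1 to -0.158 for Postn. After group means were taken out the r ran from -0.546 for Tagln to 0.371 for Postn. With the megakaryocyte sum it ran from -0.308 for Postn to 0.646 for Tagln, and without group means from -0.250 for Sparc to 0.279 for Col5a2. With the macrophage sum it ran from -0.042 for Tagln to 0.646 for Col3a1, and without group means from -0.288 for Postn to 0.790 for Sparc. The part of these cell types in the values of the 9 genes was not tested.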

How the data were processed

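RNA-seq was made from 20 libraries of cultured fetal liver progenitors in 5 groups of 4. The authors deposited RSEM gene tables with expected counts, the estimated number of reads per gene, and TPM, a gene's share of transcripts after scaling by gene length. STAR 2.5.2b, RSEM 1.3.0 and mm10 are named per the submitters' processing notes, and strand handling is not given in the sources used here. RSEM set effective lengths per library, so TPM of one gene can move with its isoforms, and comparisons use counts.

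Expected counts were rounded, filtered with filterByExpr (15835 of 53379 identifiers stayed, 105 without a gene name) and scaled by TMM. They were fitted in edgeR 4.0.16 (R 4.3.3) with quasi-likelihood F tests on 5 group means with 15 residual degrees of freedom. Benjamini-Hochberg adjustment covered all genes tested, with a threshold of 0.05. The SE is the size of the log2 difference over the root of F. Of 10 comparisons, the 2 of R307W and T354M with wild-type cells were added after the data were seen. limma 3.58.1 and DESeq2 1.42.0 gave alternatives, with other size factors, no filter, a replicate block, only the 8 libraries compared, no replicate 4, and each library left out. The scripts were tested on simulated data. Library totals of 22330475 to 33245876 limit precision for these genes, whose lowest count was 6.

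The members and lists were chosen with earlier results of these data known. Named genes are all 9 members, the 2 of each other list with the highest mean TPM, and its 2 called genes with the lowest adjusted p per comparison. Ptprc and the marker genes near 0 were named after their values were seen. Same-numbered libraries deviated together, with every r above 0.1, in GATA2 against null-empty cells (0.124 to 0.300) and in R307W against GATA2 (0.219 to 0.623), T354M against GATA2 (0.159 to 0.551) and R307W against T354M cells (0.204 to 0.667). The pairing was read from the data, as the labels give only numbers. Libraries of a group differed by more than sampling noise, since chi-square over its degrees of freedom was 16.7 to 108 for each pair.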

Additional observations from a re-analysis of the deposited data

Results flagged for a closer look

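Acta2 had 12.0 CPM in wild-type replicate 1, where the other wild-type libraries had 4.52 to 5.62, a gap of 0.852 of the group's range. Acta2 also had 4.18 CPM in T354M replicate 3, where the others had 3.48 to 3.55, a gap of 0.898 of the range. Postn had 4.12 CPM in null-empty replicate 4, where the others had 1.34 to 1.47, a gap of 0.955. Of 45 groups of 4 libraries checked, these 3 passed Dixon's 95% critical value, and chance flags about 1 in 20. The effects of R307W and T354M on Postn in enhancer-null cells differed, by -2.27 on the log2 scale in edgeR (R307W minus T354M, adjusted p = 0.00452, all 4 R307W libraries below all 4 T354M libraries).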

How the results depend on the processing

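Of 1350 log2 differences of the 9 genes under alternatives, 1266 kept their side of the threshold, 66 lost the call, 18 gained it and 0 called ones reversed. Uncalled differences that changed sign were counted among those that kept their side. Without replicate 4 of every group, members called numbered 3 with R307W, 0 with T354M and 1 with GATA2 against null-empty cells, and 2 in null-empty against wild-type cells. All genes called were then 1509, 1681 and 1996 against null-empty cells (2773, 2751 and 3042 with all libraries), 162 in R307W and 1013 in T354M against GATA2, and 316 in R307W against T354M. With only the 8 libraries compared, 117 genes were called in R307W against GATA2, and 250 genes and 0 members in R307W against T354M. The DESeq2 Wald test called 430 genes in R307W against GATA2. limma called 1831 in T354M against null-empty cells and 360 in R307W against T354M. With the replicate block, fitted over all 20 libraries, 441 genes were called in R307W against GATA2 and 888 in R307W against T354M. The block also gave Sparc -1.10 (adjusted p = 0.0178) in GATA2 against null-empty cells, and changed no other member's call in the comparisons whose numbers pair. In comparisons whose libraries share only a number, it gave Tagln -1.29 (0.0633) in null-empty against wild-type, Sparc -1.26 (0.00924) in T354M against null-empty and Postn 1.09 (0.0385) in GATA2 against wild-type cells. The cause of these shifts was not tested.

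Leaving out 1 library gave 5 to 9 members with R307W, 1 to 6 with T354M and 5 to 7 with GATA2 against null-empty cells, 0 to 1 in T354M against GATA2, and 4 to 5 in null-empty against wild-type cells. All genes called ranged from 1276 to 2976, 1401 to 3074 and 1574 to 3393 against null-empty cells, from 126 to 376 in R307W and 979 to 1679 in T354M against GATA2, and from 282 to 573 in R307W against T354M. Acta2 in T354M against wild-type cells passed without wild-type replicate 2 (-0.99, adjusted p = 0.0496). Depth limits Col1a1 and Postn most, with as few as 6 and 10 counts in a library.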

Other observations

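Receptors that bind these matrix proteins were expressed in the cultures, and a pair of collagen-binding integrins moved in opposite directions. Itga1 averaged 74.3 CPM in null-empty cells against 16.6 in wild-type cells (log2 2.16, SE 0.24, adjusted p = 8.92e-07, edgeR), and Itga2 averaged 2.79 CPM in null-empty cells against 15.3 in wild-type cells (-2.46, SE 0.36, adjusted p = 1.8e-05). No library of one group reached the other for either gene. Itga2 averaged 3.06 CPM in R307W, 2.23 in T354M and 23.2 in GATA2 cells. It rose with GATA2 over null-empty cells (3.06, SE 0.36, adjusted p = 1.41e-05), and was lower than with GATA2 in R307W (-2.92, adjusted p = 0.000211) and T354M cells (-3.38, adjusted p = 1.04e-05). Of 17 receptor genes tested, 3 rose and 6 fell in null-empty against wild-type cells, where 20.1% of all genes rose and 23.2% fell.

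In the TGF-beta pathway, 8 of 22 genes tested rose and 3 fell in null-empty against wild-type cells, beside the same 20.1% and 23.2% of all genes. Tgfbr3, the co-receptor betaglycan, averaged 1.89 CPM in null-empty cells against 35.4 in wild-type cells (-4.23, SE 0.44, adjusted p = 4.56e-07). It averaged 10.1 CPM in R307W, 2.74 in T354M and 20.0 in GATA2 cells, and rose over null-empty cells with R307W (2.43, adjusted p = 0.000699) and GATA2 (3.41, adjusted p = 2.83e-05). T354M cells were lower than GATA2 cells (-2.86, adjusted p = 0.00015), and R307W cells higher than T354M cells (1.89, adjusted p = 0.0111).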
